A study of Mus musculus with 9 samples.

Results

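Expression of the tumour suppressor gene Trp53 and of 9 genes that its protein is known to switch on was followed through 9 libraries of mouse granulosa cells, the somatic cells that surround the oocyte. The 10 genes were chosen by symbol, and all 10 were found among the 56748 Ensembl identifiers of the deposited table and among the 14431 genes expressed highly enough to test. The labels give 3 groups of 3 libraries from wild-type animals, which the series' design text describes as female C57BL/6 mice: Control, cyclophosphamide (CTX), and cyclophosphamide with hydroxychloroquine (CTX_HCQ). Cyclophosphamide, an alkylating drug, was injected at 120 mg per kg to model premature ovarian failure. Hydroxychloroquine, a drug that accumulates in lysosomes, was an oral treatment of 40 mg/kg/d that began 7 days ahead of the injection and ended 4 weeks after it. The control animals are called vehicle-treated in one text and untreated in another, and the mice's age and the number of mice behind a library are not given in the sources used here. The p-values therefore measure the spread between these libraries only, which may in part be technical.

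The p53 protein is a transcription factor that is held at a low level by the ubiquitin ligase Mdm2. When DNA is damaged, kinases release it from Mdm2, and it binds paired copies of a short DNA motif near its target genes. These targets arrest the cell cycle (Cdkn1a), feed back on p53 itself (Mdm2, Ccng1, Trp53inp1), dampen growth signals (Phlda3, Sesn2), bind RNA (Zmat3) or permeabilise mitochondria in apoptosis (Bax, Bbc3). Activation of p53 acts mainly on the protein, so the level of its targets is read more often than that of Trp53 itself.

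Promoter sequences show where such a motif lies close to a gene's start. RefSeq promoter windows, which run from 250 bases before to 50 bases after a start, were at hand for 8 of the 10 genes in 11 windows of the build GRCm38.p6. They were searched for the p53 consensus decamer, a motif of 10 bases that reads the same on both strands, and for paired decamers with 0 to 13 bases between them. Every decamer had to keep the central bases, C, A or T, A or T, and G. Mismatches were thus allowed and counted only in the outer bases. An exact decamer stood in 5 of the 11 windows, those of 5 genes, and in 8.36% of all 32851 windows of the same length. Paired decamers with at most 1 mismatch stood in 1 gene's window, that of Cdkn1a, and in 0.417% of all windows. The stretches around the exact decamers carry the matches, exact or part of a pair, in capitals and are written 5′ to 3′ along the gene's strand.
Cdkn1a, plus strand, chr17:29090891-29090962: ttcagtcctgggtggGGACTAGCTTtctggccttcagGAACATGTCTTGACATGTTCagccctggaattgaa
Bax, minus strand, chr7:45467064-45467129: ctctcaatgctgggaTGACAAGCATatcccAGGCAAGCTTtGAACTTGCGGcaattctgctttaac
Mdm2, minus strand, chr10:117710920-117710959: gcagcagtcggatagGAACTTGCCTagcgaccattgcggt
Ccng1, minus strand, chr11:40755447-40755486: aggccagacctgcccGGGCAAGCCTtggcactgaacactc
Trp53, plus strand, chr11:69580269-69580308: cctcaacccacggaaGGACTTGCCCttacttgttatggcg
The Cdkn1a stretch lies in the more upstream of that gene's 2 windows, from 88 to 17 bases before the start, and holds 3 decamers. The first and second are exact and 12 bases apart, and the second and the third abut with 1 mismatch. The Bax stretch holds 1 exact decamer, AGGCAAGCTT, with an inexact one on each side, and each of these pairs has 2 mismatches. Pairs with at most 2 mismatches stood in 2.12% of all windows. The windows of Phlda3, Bbc3 and Sesn2 held no exact decamer, which says only that these letters are not in these windows. The genes not examined were Zmat3 and Trp53inp1. The deposited expression values are per gene on the build GRCm39, so a match describes the letters of a window and is no measure of binding.

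Levels are FPKM, fragments scaled to the length of a gene's exons and to library size, which can be compared between genes. Differences between groups are differences of log2(FPKM + 1), which understate the change of genes with low FPKM. The library sizes behind the values, recovered from the deposited numbers, ran from 15344525 to 17943266 reads. Reads recovered gene by gene summed to 13372028 in CTX_HCQ 3 and to between 15963784 and 17133872 in the others. Mitochondrial genes held 28.9% of all FPKM in CTX 3 and 11.7 to 17.5% in the others. The part of these traits in the values of the p53 genes was not tested. Granulosa markers were present in every library: Inha, the inhibin alpha subunit, at 2865 to 4951 FPKM, and Foxl2, a granulosa transcription factor, at 67.8 to 104 FPKM. Of the 10 granulosa markers, all tested, 6 means stood above and 4 below in CTX against Control, and limma called none. Inhba averaged 79.3, 187 and 232 FPKM in Control, CTX and CTX_HCQ, and Cyp19a1 8.53, 21.9 and 23.2. Amh went the other way, at 421, 268 and 296 FPKM. Genes of the ovulatory response differed between libraries inside groups, with Adamts1, a protease of the ovulating follicle, at 132 to 203 FPKM in Control 2, Control 3 and CTX_HCQ 1 and at 6.64 to 20.99 FPKM in the other 6. Markers of other cells also differed between libraries. The 5 oviduct markers, 4 of them tested, summed to 3.6 to 74.2 FPKM in Control, 67.8 to 374 FPKM in CTX and 7.8 to 14.99 FPKM in CTX_HCQ. Control 1, the low control library for the p53 targets, held the highest of the control values. The 6 endothelial markers, all tested, summed to 18.0 to 47.8, 30.2 to 57.4 and 19.7 to 47.9 FPKM in the same order of groups. The 5 erythroid markers, all tested, summed to 471, 796 and 3310 FPKM in Control 1 to 3. In CTX their sums were 341 to 569 FPKM and in CTX_HCQ 293 to 860 FPKM. All 5 means were lower in CTX than in Control. Their part in the values of the p53 genes was not tested, and in bulk libraries fewer cells of a type and less RNA per cell cannot be told apart.

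Trp53 itself was expressed in every library, between 19.8 and 35.0 FPKM. It stood at 21.8, 35.0 and 33.7 FPKM in Control 1 to 3, at 19.8, 23.9 and 34.7 FPKM in CTX 1 to 3, and at 28.5, 25.7 and 22.2 FPKM in CTX_HCQ 1 to 3. The groups overlapped, and Control and CTX each held both a low and a high library. The log2 difference of CTX from Control was -0.21 (95% confidence interval -0.78 to 0.36), and that of CTX_HCQ from CTX was -0.01 (-0.58 to 0.56). Neither passed (adjusted p by limma 0.80 and 0.997). Of the tested genes, 50.7% had a smaller SD of log2(FPKM + 1) over the 9 libraries than Trp53.

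Mdm2, the ligase that marks p53 for degradation and is itself a p53 target, varied least of the 10 genes. Its FPKM was 10.7, 14.9 and 17.2 in Control, 13.9, 10.99 and 13.7 in CTX, and 15.3, 13.99 and 13.5 in CTX_HCQ. The highest and lowest of the 9 values were both control libraries. Group means were 14.2 ± 3.31, 12.9 ± 1.62 and 14.3 ± 0.928 FPKM (SD, n = 3 each), and the log2 difference of CTX from Control was -0.12 (interval -0.56 to 0.32). Only 19.9% of tested genes had a smaller SD over the libraries.

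**Figure D1:**
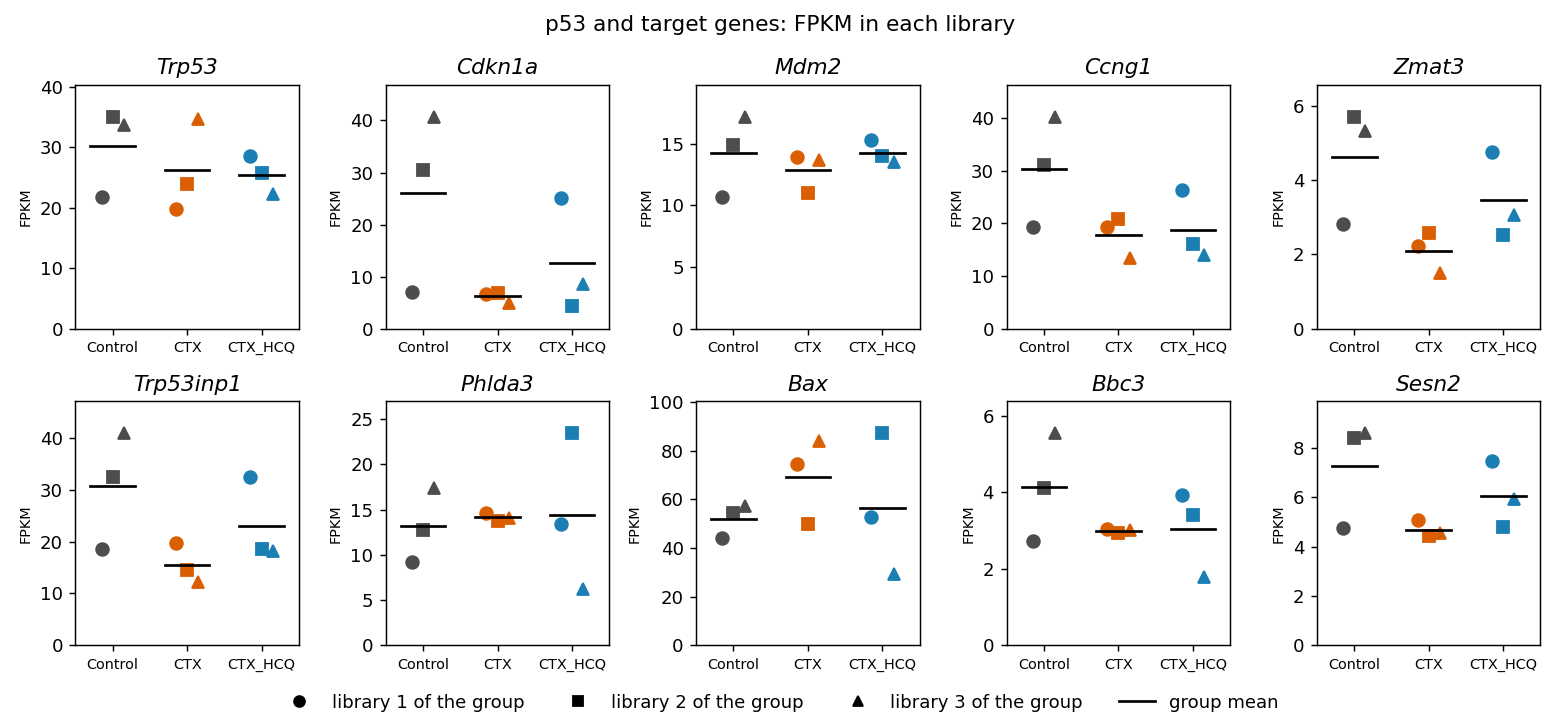
FPKM (vertical axis, linear, from 0) of the 10 genes in each library, with groups along the horizontal axis, marker shapes for libraries 1 to 3 of a group and a black bar for the group mean. Cdkn1a stands at 25.1 to 40.7 FPKM in Control 2, Control 3 and CTX_HCQ 1 and at 8.53 FPKM or less in the other 6 libraries.

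Cdkn1a encodes p21, the inhibitor of cyclin-dependent kinases through which p53 arrests the cell cycle. Its FPKM was 7.05, 30.4 and 40.7 in Control, 6.74, 6.93 and 5.004 in CTX, and 25.1, 4.28 and 8.53 in CTX_HCQ. Between 266 and 2385 reads lay behind each value. Control 2, Control 3 and CTX_HCQ 1 were high, and Control 1 stood just above the highest CTX library. The values of CTX and Control thus did not overlap, by this narrow margin, while CTX_HCQ spanned both. The log2 difference of CTX from Control was -1.61 (SE 0.65, interval -3.05 to -0.17), with an adjusted p of 0.64 by limma. It was -2.34 without Control 1, -1.35 without Control 2 and -1.15 without Control 3. Among tested genes 99.0% had a smaller SD over the 9 libraries. The range inside the Control group was 2.37 on the log2(FPKM + 1) scale. That of the 3 group means was 1.61, where means vary less than single libraries.

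Hydroxychloroquine with cyclophosphamide gave a mean of 12.6 ± 11.01 FPKM of Cdkn1a (SD, n = 3), against 6.23 ± 1.06 with cyclophosphamide alone. The log2 difference was 0.61 (SE 0.65, interval -0.83 to 2.05, adjusted p by limma 0.91). Without CTX_HCQ 1 it was -0.02, so that 1 library carried it.

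Ccng1, Zmat3 and Trp53inp1 had the same 3 libraries at the top. Ccng1 encodes cyclin G1, a partner of phosphatase 2A that acts on Mdm2, and stood at 19.4, 31.2 and 40.3 FPKM in Control, 19.3, 20.9 and 13.4 in CTX, and 26.3, 16.2 and 14.1 in CTX_HCQ. Control 1 lay below CTX 2, so the groups overlapped. The log2 difference of CTX from Control was -0.69 (SE 0.31), with an adjusted p of 0.64 by limma.

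Zmat3, which encodes a zinc finger protein that binds RNA, stood at 2.82, 5.71 and 5.33 FPKM in Control, 2.21, 2.59 and 1.51 in CTX, and 4.75, 2.54 and 3.07 in CTX_HCQ. The CTX libraries were all below the control libraries, again with Control 1 next to them. Its log2 difference of -0.83 (SE 0.27, interval -1.43 to -0.23) had the smallest unadjusted p of the 10 genes, 0.012, and an adjusted p of 0.64 by limma. Against CTX alone, CTX_HCQ stood 0.51 higher (SE 0.27, interval -0.09 to 1.10) and overlapped with it.

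Trp53inp1 encodes a stress protein that assists p53 and takes part in autophagy. It stood at 18.6, 32.4 and 40.9 FPKM in Control, 19.7, 14.5 and 12.2 in CTX, and 32.4, 18.6 and 18.2 in CTX_HCQ. CTX 1 lay above Control 1, so these groups overlapped. The log2 difference of CTX from Control was -0.90 (SE 0.32, interval -1.62 to -0.18), and that of CTX_HCQ from CTX was 0.52 (SE 0.32, interval -0.20 to 1.24). Neither passed (adjusted p by limma 0.64 and 0.91).

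Sesn2, a sestrin that restrains the growth kinase complex mTORC1 and is also a target of the integrated stress response, had the same 3 libraries at the top. Its FPKM was 4.76, 8.39 and 8.59 in Control, 5.06, 4.43 and 4.54 in CTX, and 7.45, 4.79 and 5.91 in CTX_HCQ. Control 1 stood inside the range of the CTX libraries. The CTX group was tight, at 4.68 ± 0.338 FPKM, against 7.25 ± 2.15 in Control (SD, n = 3), and the log2 difference was -0.50 (SE 0.23).

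The pro-apoptotic genes differed from one another. Bbc3 encodes PUMA, a BH3-only protein that frees Bax from its inhibitors, and rested on 58 to 194 reads per library. It stood at 2.72, 4.12 and 5.54 FPKM in Control, 3.05, 2.93 and 3.01 in CTX, and 3.92, 3.39 and 1.78 in CTX_HCQ. Its top 3 libraries were again Control 3, Control 2 and CTX_HCQ 1, but CTX_HCQ 3 was the lowest of all, and all groups overlapped.

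Bax encodes the protein that forms pores in the outer mitochondrial membrane and was the most highly expressed of the 10 genes. Its FPKM was 44.2, 54.3 and 57.3 in Control, 74.3, 49.7 and 84.0 in CTX, and 52.6, 87.1 and 29.2 in CTX_HCQ. CTX_HCQ held both the highest and the lowest library. For Bax the log2 difference of CTX from Control was 0.38 (SE 0.36, interval -0.42 to 1.19), opposite in sign to that of Cdkn1a, and neither difference passed.

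Phlda3, a lipid-binding protein that competes with the kinase AKT at the membrane, stood at 9.26, 12.8 and 17.4 FPKM in Control, 14.6, 13.7 and 14.1 in CTX, and 13.5, 23.4 and 6.27 in CTX_HCQ. As for Bax, CTX_HCQ 2 was the highest and CTX_HCQ 3 the lowest library. The CTX libraries of Phlda3 were again close together, at 14.1 ± 0.478 FPKM (SD, n = 3), and lay inside the control range.

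**Figure D2:**
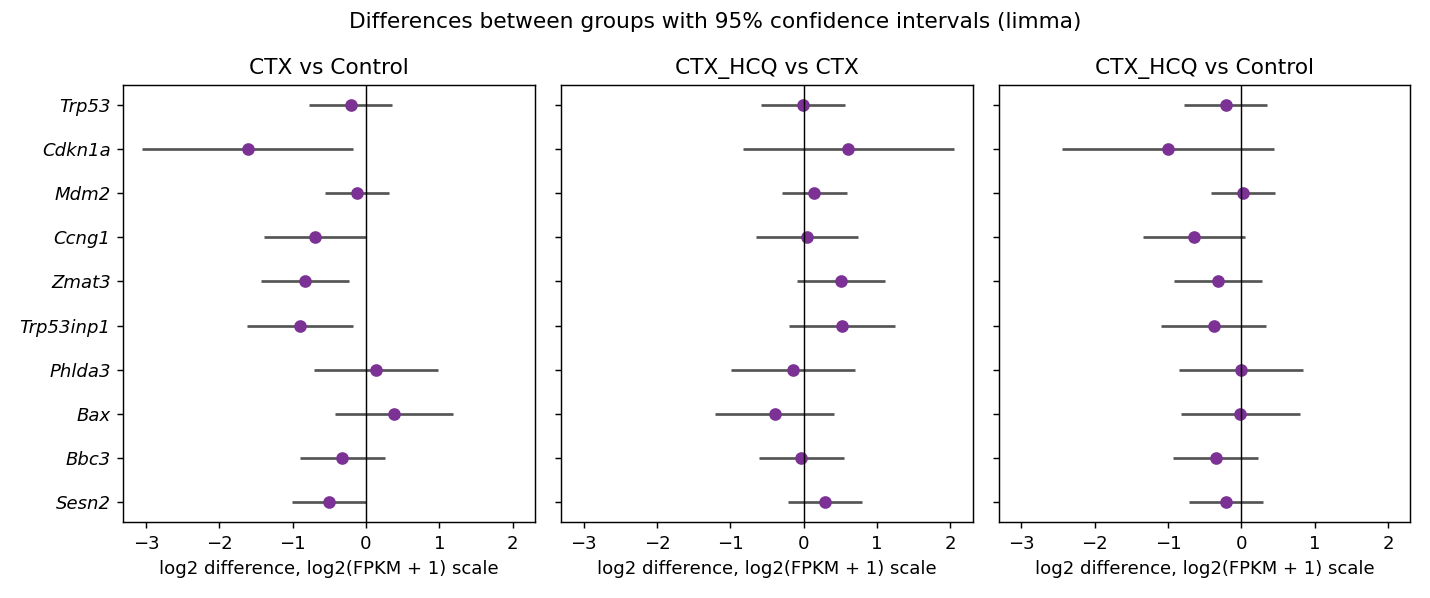
Differences between group means of log2(FPKM + 1) (horizontal axis) for the 10 genes, with 95% confidence intervals as lines, in 3 panels for CTX against Control, CTX_HCQ against CTX and CTX_HCQ against Control. In the first panel the interval of Cdkn1a runs from -3.05 to -0.17 and that of Bax from -0.42 to 1.19.

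Across the 10 genes, the comparison of CTX with Control put 8 means below (50.5% of all tested genes) and 2 above (49.5%) on the log2 scale, with a median log2 difference of -0.41 beside -0.0045 over all tested genes. Limma called 0 of the 10 and 0 of 14431 tested genes (0%), with 1126 genes at an unadjusted p under 0.05. At that unadjusted level stood 3 of the 10 genes, Cdkn1a, Zmat3 and Trp53inp1, all lower, where the background in that direction was 4.2% of tested genes. The values of the groups did not overlap for 2 of the 10 genes, Cdkn1a and Zmat3, both lower, beside 11% of tested genes. None of the 10 was higher without overlap, beside 8.72% of tested genes. Voom on recovered reads also called 0 genes, with 1078 of 13578 at an unadjusted p under 0.05. Estimating a weight per library gave 648 calls among all 14431 tested genes and 4 among the 10, Cdkn1a, Zmat3, Trp53inp1 and Sesn2 (adjusted p by limma 0.038 to 0.0498). The weight given to each library was not recorded.

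Adding hydroxychloroquine put 6 of the 10 means above those of CTX alone (52.1% of all tested genes) and 4 below (47.9%), with a median log2 difference of 0.096 beside 0.013 over all tested genes. Limma called 0 of the 10 and 0 of all tested genes (0%), and 785 genes stood at an unadjusted p under 0.05. None of the 10 reached that level, where the background was 5.44%, of which 3.6% lower and 1.84% higher. None was without overlap either, where it was 8.02%, of which 4.57% lower and 3.45% higher. Without CTX_HCQ 3 all 10 differences were above 0, with a median of 0.26, and without CTX_HCQ 1 the median was -0.05. Voom called 0 genes and put 713 at an unadjusted p under 0.05.

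In the comparison of CTX_HCQ with Control, 9 of the 10 means were below (51.9% of all tested genes) and 1 above (48.1%), with a median log2 difference of -0.27 beside -0.011 over all tested genes. Limma called 0 of the 10 and 0 of all tested genes (0%), with 312 genes at an unadjusted p under 0.05 by limma and 283 by voom, which called 0. None of the 10 reached that level, beside 2.16% of tested genes, of which 1.07% lower and 1.09% higher. None was without overlap, beside 6.31%, of which 3.06% lower and 3.25% higher. The median was -0.50 without Control 1, and -0.14 and -0.13 without Control 2 and Control 3. Each of the 3 groups enters 2 of the 3 comparisons, so their values are not independent.

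Libraries of a group differed among themselves. For 8 of the 10 genes the range inside the Control group exceeded the range of the 3 group means on the log2 scale, the exceptions being Zmat3 and Bax. Group means vary less than single libraries, so this count is a description and no test. Control 1 was among the 3 highest libraries for none of the 10 genes, Control 2 for 8 and Control 3 for 9. The shares of all tested genes were not computed for these counts. The median of the 10 centred values (log2(FPKM + 1) less the gene's mean over 9 libraries) was -0.26 in Control 1, 0.42 in Control 2 and 0.54 in Control 3. It was -0.12, -0.20 and -0.20 in CTX 1 to 3, and 0.25, -0.13 and -0.29 in CTX_HCQ 1 to 3. Control 1 thus lay below all 3 CTX libraries on this measure, and CTX_HCQ 1 lay between the CTX libraries and Control 2.

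For 7 of the 10 genes, all but Trp53, Phlda3 and Bax, the 3 highest libraries were Control 2, Control 3 and CTX_HCQ 1. This set of libraries was picked from the values of the 10 genes themselves. The count, and those of other lists against the same set, are therefore descriptions and no test. The same 3 were highest for 8.41% of all tested genes and for 3 of the 34 tested members of a wider list of p53 targets, Aen, Eda2r and Polh, which were picked out after their values were seen. They were also highest for 3 of the 4 tested genes of the ovulation and cumulus list. Profiles were compared as the mean absolute difference of centred values over the 9 libraries. Zmat3, Sesn2, Trp53inp1 and Ccng1 lay 0.16 to 0.22 apart in all their pairs, and Bax and Phlda3 0.20 apart. Cdkn1a had the same 3 highest libraries but its lowest was CTX_HCQ 2, and it lay 0.50 from Trp53inp1 and 1.12 from Bax.

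**Figure D3:**
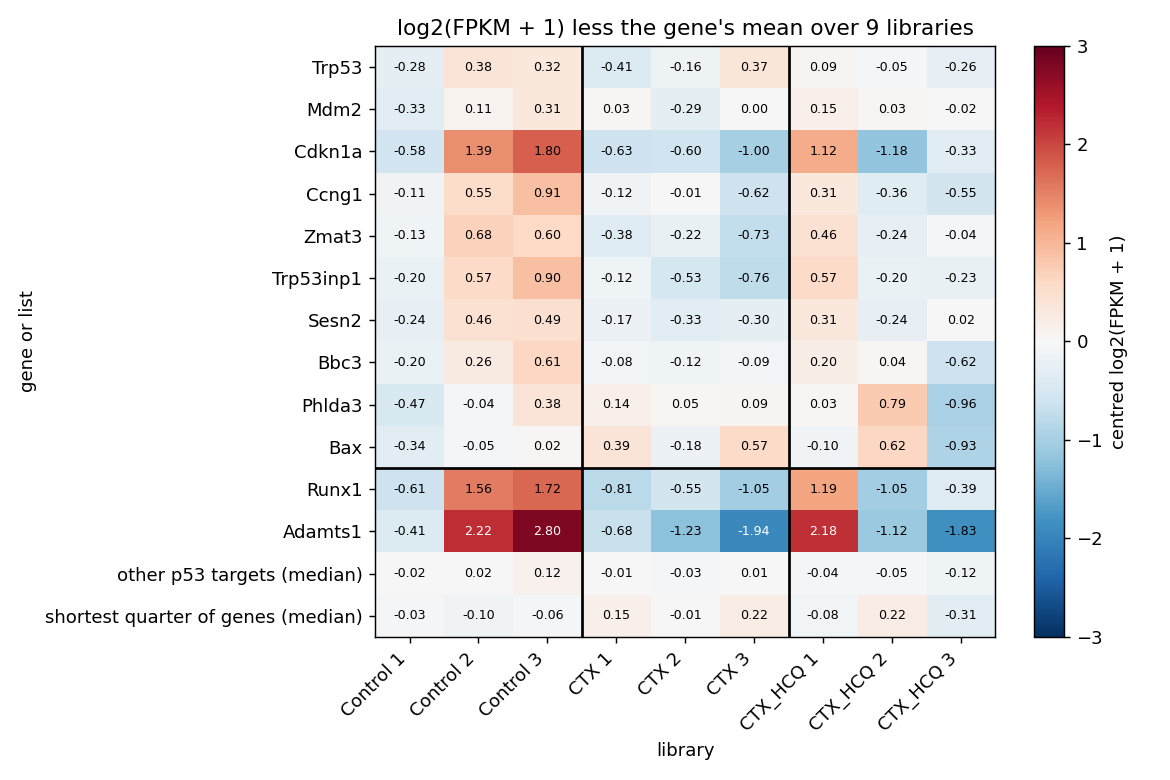
Centred log2(FPKM + 1), each gene less its own mean over the 9 libraries, for the 10 genes (rows above the line) and for Runx1, Adamts1, the median of the other p53 targets and the median of the shortest class of tested genes (rows below it), by library (columns). Cdkn1a reads 1.39, 1.80 and 1.12 in Control 2, Control 3 and CTX_HCQ 1, where Runx1 reads 1.56, 1.72 and 1.19.

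Among 12536 named genes outside the list, the profile closest to that of Cdkn1a over the 9 libraries was that of Runx1, a transcription factor of the ovulatory response, at a mean absolute difference of 0.091. Runx1 stood at 4.74, 24.9 and 27.8 FPKM in Control, 4.00, 4.99 and 3.25 in CTX, and 19.0, 3.23 and 5.70 in CTX_HCQ. The sialyltransferase gene St3gal1 followed at 0.15, then Gprc5b and Tmem71 at 0.21 and Dmbt1 at 0.22, where the median over all tested genes was 0.97. Closest to Trp53 were Slc9a3r1 at 0.084, Rpusd1 at 0.094, and Wfdc6a, Apba3 and Isyna1 at 0.096 to 0.097, against a median of 0.34. Closest to the median profile of the 10 genes were Slc25a51 at 0.055, Zbtb7b at 0.067, Hdhd2 at 0.070, Pvr at 0.078 and Tor3a at 0.079. The summed level of the ovulation and cumulus markers was 192, 277 and 189 FPKM in Control 2, Control 3 and CTX_HCQ 1 and 23.0 to 53.5 FPKM in the other libraries, with 4 of its 14 genes expressed highly enough to test. Its defining genes Ptgs2 and Pgr were near 0, at 0.06 to 0.37 and 0.02 to 0.29 FPKM. The part of this response in the level of Cdkn1a was not tested.

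The order of Bax and Phlda3 was set beside that of other short transcripts. Their summed exon lengths, 1576 and 1559 bases, fall in the shortest class of tested genes, those of 2169 bases or less. Bbc3, at 2124 bases, falls in this class too. The median centred value of that class was 0.15, -0.015 and 0.22 in CTX 1 to 3, -0.081, 0.22 and -0.31 in CTX_HCQ 1 to 3, and -0.027, -0.10 and -0.057 in Control 1 to 3. Its 3 highest libraries, CTX_HCQ 2, CTX 3 and CTX 1, were the 3 highest of Bax, and CTX_HCQ 3 was lowest in both. Phlda3 also had CTX_HCQ 3 lowest, but its 3 highest were CTX_HCQ 2, Control 3 and CTX 1. Bbc3 had CTX_HCQ 3 lowest as well, but its 3 highest were Control 3, Control 2 and CTX_HCQ 1, unlike the class. With each library's trend on length removed, a choice made after the data were seen, the difference of CTX from Control was -0.05 for Phlda3, against 0.14 without that step, and 0.20 for Bax, against 0.38. The part of transcript length in these values was not tested further.

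**Figure D4:**
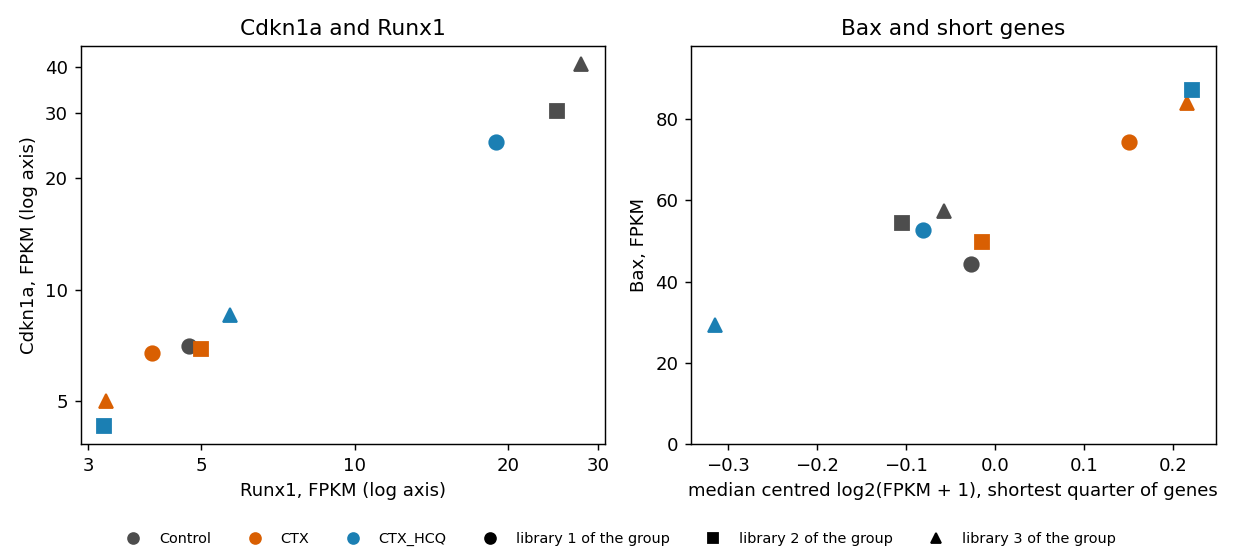
Left, FPKM of Cdkn1a (vertical) and Runx1 (horizontal) in the 9 libraries on log axes. Right, FPKM of Bax (linear, from 0) beside the median centred log2(FPKM + 1) of the shortest class of tested genes. Control 2, Control 3 and CTX_HCQ 1 stand apart on the left, and CTX_HCQ 3, at 29.2 FPKM of Bax, stands lowest on the right.

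Relative to Trp53 of the same library, Cdkn1a stood at a ratio of FPKM of 0.87 in Control 2, 1.21 in Control 3 and 0.88 in CTX_HCQ 1. It was 0.14 to 0.38 in the other 6 libraries, so most of the spread of Cdkn1a was not shared by Trp53. The ratio of Mdm2 to Trp53 stayed between 0.39 and 0.70. Bax to Trp53 ran from 1.32 in CTX_HCQ 3 to 3.75 in CTX 1.

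The wider list of p53 targets, 38 genes beside the 10, held 34 genes expressed highly enough to test. In CTX against Control 14 stood above and 20 below, with a median log2 difference of -0.054. Limma called none, and 1 in each direction stood at an unadjusted p under 0.05, beside 3.6% of tested genes higher and 4.2% lower. For this and later lists, the background above and below is the share of all tested genes printed with the 10 genes. Eda2r, a receptor of the tumour necrosis factor family, averaged 3.15 ± 1.33 FPKM in the controls against 1.38 ± 0.213 with cyclophosphamide, and Trp53i11 12.6 ± 2.95 against 19.1 ± 2.46 (SD, n = 3). The death receptor gene Tnfrsf10b averaged 4.14 ± 0.807 against 2.91 ± 0.455, and Btg2, which restrains proliferation, 29.4 ± 4.14 against 15.8 ± 7.47. Aen, a nuclease gene of the apoptotic response, stood at 4.71, 11.2 and 10.7 FPKM in Control 1 to 3, 4.89 to 6.34 in CTX and 9.75, 6.36 and 6.48 in CTX_HCQ.

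With hydroxychloroquine added, 17 of the 34 stood above and 17 below CTX alone. Spata18, a gene of mitochondrial quality control, averaged 1.33 ± 0.281 FPKM with cyclophosphamide alone and 0.172 ± 0.202 with both drugs, from 1 to 65 reads per library, and Sesn1, a sestrin, 17.5 ± 3.16 and 13.6 ± 1.08. Against Control, 11 stood above and 23 below, and none was at an unadjusted p under 0.05. Spata18 and Prkab1, a subunit of the energy sensor AMPK, had the smallest p there, with Prkab1 at a log2 difference of -0.28 (SE 0.21). The median centred value of the list stayed between -0.12 in CTX_HCQ 3 and 0.12 in Control 3, a narrower span than that of the 10 genes.

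Regulators and partners of p53, 26 of 29 tested, were 10 above and 16 below in CTX against Control, and none was at an unadjusted p under 0.05. The methyltransferase gene Setd7 averaged 7.79 ± 1.12 FPKM in the controls against 4.91 ± 1.11 with cyclophosphamide, and the p53 kinase gene Hipk2 5.71 ± 1.27 against 2.59 ± 1.59. Wrap53, which overlaps Trp53 on the opposite strand, averaged 9.29 ± 0.549 against 12.1 ± 1.06, and Trp53bp2 14.6 ± 0.939 against 17.7 ± 0.931. Without strand, only reads that fall where Wrap53 and Trp53 overlap cannot be told apart. Mdm4, the partner of Mdm2 that blocks p53, averaged 15.1 ± 1.25 FPKM in the controls against 22.1 ± 8.45 with both drugs, with 31.8 in CTX_HCQ 3 and 16.3 and 18.1 in the others. Ppp1r13b stood at a log2 difference of -0.36 (SE 0.17) in the same comparison. For CTX_HCQ against CTX, where 13 stood above and 13 below, Trp53bp1 stood 0.35 higher (SE 0.19) and Prkdc 0.34 (SE 0.20). Below the expression filter lay Cdkn2a, whose product ARF inhibits Mdm2, at 0.05 to 0.99 FPKM, and the p53 relatives Trp63 at 0.14 to 0.50 and Trp73 at 0.12 to 0.90 FPKM.

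Genes that p21 and the DREAM complex are known to keep low, 26 of 26 tested, were read beside Cdkn1a. In CTX against Control 10 stood above and 16 below, with a median log2 difference of -0.052 and none at an unadjusted p under 0.05. The spindle gene Prc1 averaged 6.81 ± 0.937 FPKM in the controls against 4.54 ± 1.9 with cyclophosphamide, and Bub1b, Rrm2 and Mybl2 at log2 differences of -0.37, -0.64 and -0.26. Rrm2, a subunit of ribonucleotide reductase, stood at 24.5, 23.4 and 20.002 FPKM in Control 2, Control 3 and CTX_HCQ 1 and at 14.3 or less in the other 6 libraries. Its libraries are printed because their values had been seen. The median centred value of the list was 0.24, 0.005 and 0.002 in the same 3 libraries and -0.24 to 0.10 in the other 6. In CTX_HCQ against CTX 12 stood above and 14 below, with Chaf1b at -0.34 and Prc1 at 0.34. Against Control 7 stood above and 19 below, with Mybl2 at -0.29 and Plk1 at -0.26.

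Of the other cyclins and inhibitors of cyclin-dependent kinases, 14 of 15 tested, 8 stood above and 6 below in CTX against Control. Cdkn1b, which encodes p27, stood at 73.4, 55.5 and 61.8 FPKM in Control and 54.6, 39.4 and 22.9 in CTX, without overlap. Cdkn1c, which encodes p57, stood at 2.501 ± 0.0694 in Control, 3.67 ± 0.250 in CTX and 3.74 ± 1.02 in CTX_HCQ (SD, n = 3), and Cdkn2b, which encodes p15, at 1.93 ± 1.21, 5.51 ± 3.11 and 2.09 ± 1.02. These 3, of which 2 higher and 1 lower, stood at an unadjusted p under 0.05 for CTX against Control, with adjusted p of 0.64 by limma. The background was 3.6% of tested genes higher and 4.2% lower. Ccne1, which encodes cyclin E1, stood at a log2 difference of 0.32 (SE 0.18). In CTX_HCQ against CTX, Cdkn2b stood at -0.97 (SE 0.44) and Ccnd1, which encodes cyclin D1, at -0.40 (SE 0.24). Control 1 was the highest of the 9 libraries for Cdkn1b, unlike its place for Cdkn1a.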

How the data were processed

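RNA sequencing of polyadenylated RNA gave 9 libraries. The authors deposited 1 table of FPKM. DESeq2 1.20.0, featureCounts 1.5.0-p3, HISAT2 2.0.5 and fastp 0.23.2 appear with the build GRCm39 in the processing steps, per the submitters' processing notes. Their roles, and whether strand was used, are not stated there. Symbols came from GENCODE M21, which is of another build, for 52073 of 56748 identifiers. Summed exon lengths from it turned FPKM into whole reads within 0.02 reads for 13578 of 14431 tested genes (94.1%).

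Genes with at least 1 FPKM in at least 3 libraries were tested on log2(FPKM + 1) in limma 3.58.1 (R 4.3.3), with 1 mean per group over all 9 libraries, a variance trend, and Benjamini-Hochberg adjustment over all tested genes at 0.05. The fit was tested on simulated data. Members, lists and alternatives were chosen with earlier results of these data known. From each list, genes of smallest p were named, up to 4 for CTX against Control and up to 2 for each other comparison. Not all of these are printed, and Aen and Polh were named for their highest libraries instead. No 2 libraries of a group differed by as little as sampling noise (chi-square per degree of freedom 15.9 to 166). Alternatives covered the pseudocount, filter, scaling, weights, groups in the fit, replicate block, voom, libraries left out and a length trend.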

Additional observations from a re-analysis of the deposited data

How the results depend on the processing

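Of 594 recomputed values of the 10 genes under 20 alternatives, 557 kept their direction and side of the threshold and 4 passed it, all with library weights: Cdkn1a at -2.03, Zmat3 at -0.93, Trp53inp1 at -0.999 and Sesn2 at -0.66 for CTX against Control. The other 33 reversed, each from a difference that had not passed. Many values could not reverse, as some settings leave the log2 difference of a gene unchanged by design. These were the other filters, only the 2 groups fitted, the replicate block, and a library outside the comparison left out. Weights gave 648, 1 and 1 calls among all genes for CTX against Control, CTX_HCQ against CTX and CTX_HCQ against Control, where limma without them gave 0, and 4 of the 10 genes in the first. Leaving out single libraries gave 0 to 13, 0 to 10 and 0 calls, with 13 and 10 both without Control 1. Genes at an unadjusted p under 0.05 for CTX against Control numbered 424 and 468 when Control 2 or Control 3 was left out, 678 and 681 for CTX 1 or CTX 3, 1693 for CTX_HCQ 2, 2067 with only the 2 groups fitted, 3935 with weights, 1906 without a filter and 580 at a mean of at least 5 FPKM, against 1126. The cause was not tested, beyond the fewer or more genes and samples these settings hold.

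Reversed values for CTX_HCQ against CTX were Trp53 at 0.038 (quantile normalization), 0.26 (weights) and 0.30 (without CTX 3 and CTX_HCQ 3), Phlda3 at 0.31 and Bax at 0.15 (without both), and Bbc3 at 0.22 (weights; without both). With the length trend removed, Phlda3 was at 0.051 and Bbc3 at 0.11, and Phlda3 at -0.050 for CTX against Control. For CTX_HCQ against Control they were Mdm2 at -0.018 (weights), Phlda3 at 0.0016 (voom), 0.45 (without both) and 0.00097 (length trend), and Bax at 0.021 (quantile normalization) and 0.38 (without both). Over single libraries left out, Mdm2 ran from -0.30 to 0.020 and Phlda3 from -0.073 to 0.35 for CTX against Control. For CTX_HCQ against CTX, Trp53 ran from -0.18 to 0.21, Cdkn1a from -0.016 to 1.14, Ccng1 from -0.21 to 0.22, Phlda3 from -0.56 to 0.31, Bax from -0.77 to 0.00028 and Bbc3 from -0.19 to 0.22. Against Control, Mdm2 ran from -0.16 to 0.16, Phlda3 from -0.42 to 0.45 and Bax from -0.39 to 0.38. Zmat3 and Bbc3 have no value at a mean of at least 5 FPKM.

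No pairing of the libraries by replicate number was seen. Same-numbered libraries deviated from their group means with correlations of -0.46 to 0.14, and 1 of 9 libraries was closest to its own number. Deviations from means of so few libraries cannot exclude a shared day or batch. With a replicate block limma called 0 genes in all 3 comparisons and put 847, 668 and 293 at an unadjusted p under 0.05. Depth limits Bbc3 most, with as few as 58 reads in a library.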

Other observations

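Genes that share regulators with members of the p53 list were read in the same way. Of 14 tested genes of the integrated stress response, which also drives Sesn2, 5 stood above and 9 below in CTX against Control, with a median log2 difference of -0.27, and limma called none. Slc7a5, an amino acid transporter gene, stood at 64.8, 61.8 and 63.1 FPKM in Control 1 to 3, 32.1, 41.6 and 36.4 in CTX, and 76.0, 42.2 and 56.0 in CTX_HCQ. Unlike Cdkn1a, it was as high in Control 1 as in the other control libraries. For Slc7a5 the log2 difference was -0.77 (SE 0.23) for CTX against Control and 0.61 (SE 0.23) for CTX_HCQ against CTX, with adjusted p of 0.64 and 0.85 by limma. Vldlr stood at 4.94 ± 1.78 in CTX and 7.78 ± 0.406 in Control (SD, n = 3), and Nupr1 at 18.7 ± 11.4 and 7.75 ± 2.18. For none of the 14 were Control 2, Control 3 and CTX_HCQ 1 the 3 highest libraries.

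Of 12 FOXO targets, 7 stood above and 5 below in CTX against Control, and for 3 of the 12 (25%, beside 8.41% of tested genes) Control 2, Control 3 and CTX_HCQ 1 were highest. The repressor gene Bcl6 stood at 5.47, 4.14 and 4.93 FPKM in Control and 1.71, 1.40 and 2.16 in CTX, with a log2 difference of -1.09 (SE 0.29) and an adjusted p of 0.64 by limma. Cited2 stood at 83.0, 215 and 258 FPKM in Control and 73.6 to 81.8 in CTX, with Control 1 next to the CTX libraries. Foxo3 stood at a log2 difference of -0.52 (SE 0.21), and Sesn3, in the other direction, at 1.21 (SE 0.58). In the BCL2 family beside Bax and Bbc3, 10 of 14 genes tested, 5 stood above and 5 below. Bmf, a BH3-only gene like Bbc3, stood at 10.3, 10.5 and 12.7 FPKM in Control and 6.59, 6.83 and 4.16 in CTX. Its log2 difference was -0.85 (SE 0.24, adjusted p by limma 0.64). Bik stood higher in CTX than in Control, at a log2 difference of 0.47 (SE 0.24). Bak1, the relative of Bax, stood at 13.7 ± 4.43 in CTX_HCQ, 18.6 ± 1.38 in CTX and 19.5 ± 1.60 in Control (SD, n = 3).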
